A study of Mus musculus with 6 samples.

Results

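The interferon-induced guanylate-binding proteins (GBPs) and immunity-related GTPases (IRGs) are represented here by 10 genes, 5 GBPs (Gbp2, Gbp3, Gbp5, Gbp7 and Gbp9) and 5 IRGs (Irgm1, Irgm2, Igtp, Iigp1 and Ifi47). They were found by an exact match of the gene symbol among the 35271 genes whose rows could be restored from the deposited expression table, and all 10 were present. The table comes from bulk RNA sequencing of bone marrow-derived macrophages (BMDMs) that were grown with macrophage colony-stimulating factor from femoral marrow of C57BL/6 mice. There were 3 control libraries (Ctrl), which received no drug, and 3 libraries from BMDMs exposed for 12 h to zoledronic acid (ZA), a nitrogen-containing bisphosphonate given against bone resorption. The dose used for sequencing was not named in the sources used here, no gene was altered in either group, and no interferon treatment is named. Nothing in the labels says whether libraries of one group came from separate mice, so the p-values measure the spread between these libraries, which may be technical. Values are FPKM, fragments scaled by the length of the gene's transcripts and by the total of the library, a scale that allows levels to be compared between genes of different length. Each library held between 41230600 and 42155808 fragments, and each member was covered by 184 to 5239 fragments per library. All 10 macrophage markers examined, among them Csf1r and Adgre1, were expressed. Neutrophil and progenitor RNA was present at a low level, with sums over 10 genes of 30.8 to 49.7 FPKM per library, although Ly6g was at 0 in every library.

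GBPs and IRGs are large GTPases that are scarce in resting cells and made in quantity after interferon signalling. Signalling by interferon-gamma ends at the gamma-activated site (GAS) in the promoters of its target genes, and signalling by type I interferons at the interferon-stimulated response element (ISRE), which IRF1 also recognises. The proteins coat vacuoles that hold bacteria or parasites and bacteria in the cytosol, break these membranes open, and help expose lipopolysaccharide to caspase-11. Some GBPs are anchored to membranes by a prenyl group, a lipid made in the mevalonate pathway that ZA blocks at farnesyl diphosphate synthase.

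The promoter stretches that hold interferon motifs are shown first, because they are a sequence feature that most of the members share. RefSeq promoter windows (build GRCm38.p6, from 250 bases before to 50 bases after the annotated start) were matched for 8 of the 10 members, with 9 promoters in all, since Gbp3 has a second start. The GAS was searched as TTCNNNGAA, which reads the same on both strands, and the ISRE core as GAAA, any 2 bases and GAAA again on both strands, so that a match on the other strand reads TTTC, any 2 bases and TTTC. Capitals mark the matched letters, and sequences run 5′ to 3′ on the strand of the gene.
Gbp2, chr3:142620594-142620623, plus strand: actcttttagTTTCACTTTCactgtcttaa
Gbp3, chr3:142559989-142560024, plus strand: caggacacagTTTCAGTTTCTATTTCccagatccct
Gbp5, chr3:142496684-142496900, plus strand: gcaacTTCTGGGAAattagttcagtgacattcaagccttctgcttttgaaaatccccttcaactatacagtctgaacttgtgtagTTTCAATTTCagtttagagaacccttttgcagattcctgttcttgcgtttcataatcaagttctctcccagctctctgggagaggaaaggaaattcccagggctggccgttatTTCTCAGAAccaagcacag
Gbp7, chr3:142530220-142530302, plus strand: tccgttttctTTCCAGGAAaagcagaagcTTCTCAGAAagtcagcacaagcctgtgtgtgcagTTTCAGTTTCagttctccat
Irgm1, chr11:48871425-48871460, minus strand: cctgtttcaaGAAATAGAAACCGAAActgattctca
Irgm2, chr11:58214892-58214932, plus strand: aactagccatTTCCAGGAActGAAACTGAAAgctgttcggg
Igtp, chr11:58199501-58199541, plus strand: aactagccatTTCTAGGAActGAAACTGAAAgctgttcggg

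In Gbp3 and in Irgm1 the capitals hold 2 overlapping ISRE matches. An ISRE core stood in 7 of the 9 member promoters (77.8%) and in 3.44% of all 32851 promoters of the same length. A GAS stood in 4 of the 9 (44.4%), in Gbp5, Gbp7, Irgm2 and Igtp, against 8.3% of all promoters, and those 4 promoters also held the ISRE core, a pairing found in 0.454% of all. In Irgm2 and Igtp the GAS and the ISRE core lay side by side within 41 printed bases. The Ifi47 promoter and the second Gbp3 promoter held no match to these letters. A match describes the sequence and is not evidence of binding in these cells.

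Levels in Ctrl BMDMs spanned more than an order of magnitude. Irgm1 was the most abundant member, with a mean of 34.6 ± 2.64 FPKM (SD, n = 3), followed by Ifi47 at 22.7 ± 3.02 FPKM, Igtp at 17.1 ± 1.71 FPKM, Irgm2 at 13.2 ± 1.06 FPKM and Gbp2 at 10.9 ± 1.02 FPKM. Below these came Gbp3 at 4.50 ± 0.470 FPKM, Gbp9 at 3.99 ± 0.510 FPKM, Gbp7 at 2.34 ± 0.541 FPKM, Gbp5 at 1.84 ± 0.328 FPKM and Iigp1 at 1.73 ± 0.480 FPKM. The regulatory IRGs and Ifi47 thus stood above every GBP, and the membrane-coating IRG Iigp1 was the lowest. In Ctrl the values of neighbours in this order overlapped for Gbp3 and Gbp9, for Gbp7 and Gbp5, and for Gbp5 and Iigp1, so their order was not resolved. In ZA the overlap extended to Irgm1 and Ifi47, to Igtp and Irgm2, and to Irgm2 and Gbp2. Iigp1 exceeded Gbp5 in library 3 of both groups and was below it in the other 4 libraries.

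Among the GBPs, Gbp2, which gathers on pathogen vacuoles and on bacteria in the cytosol, had 10.4, 10.3 and 12.1 FPKM in Ctrl libraries 1, 2 and 3, and 10.3, 13.1 and 15.6 FPKM in the corresponding ZA libraries. ZA library 1 lay at the level of the lowest Ctrl libraries, while ZA libraries 2 and 3 lay above all of Ctrl. The fitted log2 fold change of ZA over Ctrl was 0.22 ± 0.13 (SE), with an adjusted p-value of 0.521 in limma. Gbp3 had 3.96, 4.71 and 4.83 FPKM in Ctrl and 4.64, 5.02 and 6.19 FPKM in ZA, so that ZA library 1 again fell inside the Ctrl range. Its log2 fold change was 0.19 ± 0.10 (adjusted p = 0.471, limma). Gbp5, which promotes assembly of the NLRP3 inflammasome, had 1.53, 1.82 and 2.18 FPKM in Ctrl and 1.82, 2.04 and 2.86 FPKM in ZA. Only ZA library 3 exceeded the highest Ctrl library for this gene, and the log2 fold change was 0.18 ± 0.12 (adjusted p = 0.587, limma).

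Gbp7, a GBP tied to defence against intracellular pathogens and to assembly of the phagocyte NADPH oxidase, had 1.74, 2.48 and 2.79 FPKM in Ctrl and 2.64, 3.07 and 3.42 FPKM in ZA. ZA libraries 2 and 3 were above all of Ctrl, and ZA library 1 was below Ctrl library 3 alone. Its mean was 30.3% higher in ZA, the highest ratio of means among the members at 1.30, and the log2 fold change was 0.29 ± 0.12 (adjusted p = 0.391, limma). Of the 150-base stretches in its annotated transcripts, 8.77% also occurred in a neighbouring gene model, Gm43802, so a small part of its reads could have been counted for either gene. Gbp9 had 3.62, 3.78 and 4.58 FPKM in Ctrl and 3.73, 4.37 and 5.30 FPKM in ZA. Here ZA libraries 1 and 2 both lay within the Ctrl range, and the log2 fold change was 0.12 ± 0.11 (adjusted p = 0.681, limma), the smallest among the GBPs.

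Irgm1, Irgm2 and Igtp (also called Irgm3) are the regulatory IRGs, which hold the effector IRGs inactive on the cell's own membranes. Irgm1 had 32.9, 33.4 and 37.7 FPKM in Ctrl and 33.9, 39.2 and 45.0 FPKM in ZA, with ZA library 1 between the 2 lower Ctrl libraries and the highest one. Its log2 fold change was 0.17 ± 0.09 (adjusted p = 0.490, limma). Irgm2, which also restrains caspase-11 responses to lipopolysaccharide, had 12.6, 12.7 and 14.5 FPKM in Ctrl and 13.8, 15.3 and 19.6 FPKM in ZA. ZA libraries 2 and 3 exceeded all of Ctrl, and the log2 fold change was 0.27 ± 0.11 (adjusted p = 0.385, limma). Igtp had 15.1, 18.0 and 18.1 FPKM in Ctrl and 16.4, 17.0 and 21.3 FPKM in ZA. For Igtp, ZA libraries 1 and 2 were below 2 of the 3 Ctrl libraries, and its log2 fold change of 0.085 ± 0.10 was the lowest of the 10 (adjusted p = 0.770, limma). Irgm2 and Igtp shared 0.437% and 0.739% of their 150-base stretches with each other, so their counts were nearly separate.

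Iigp1 and Ifi47 are effector IRGs, of which Iigp1 (Irga6) is loaded onto the vacuole of Toxoplasma and breaks it into vesicles. Iigp1 had 1.27, 1.71 and 2.23 FPKM in Ctrl and 1.49, 1.80 and 2.99 FPKM in ZA, the widest scatter of any member. Its groups overlapped for ZA libraries 1 and 2, and the log2 fold change was 0.16 ± 0.18 (adjusted p = 0.757, limma). Sharing of sequence between Iigp1 and the neighbouring paralog Iigp1c was not counted, because the transcript set used did not hold the latter. Ifi47 (Irgd) had 19.9, 22.3 and 25.9 FPKM in Ctrl and 24.1, 29.4 and 34.6 FPKM in ZA. ZA libraries 2 and 3 exceeded every Ctrl library, and ZA library 1 exceeded 2 of the 3. The mean was 29.2% higher in ZA. In the main fit the log2 fold change of 0.35 ± 0.13 was the highest of the 10. Its 95% interval ran from 0.06 to 0.64 (adjusted p = 0.332, limma).

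**Figure D1:**
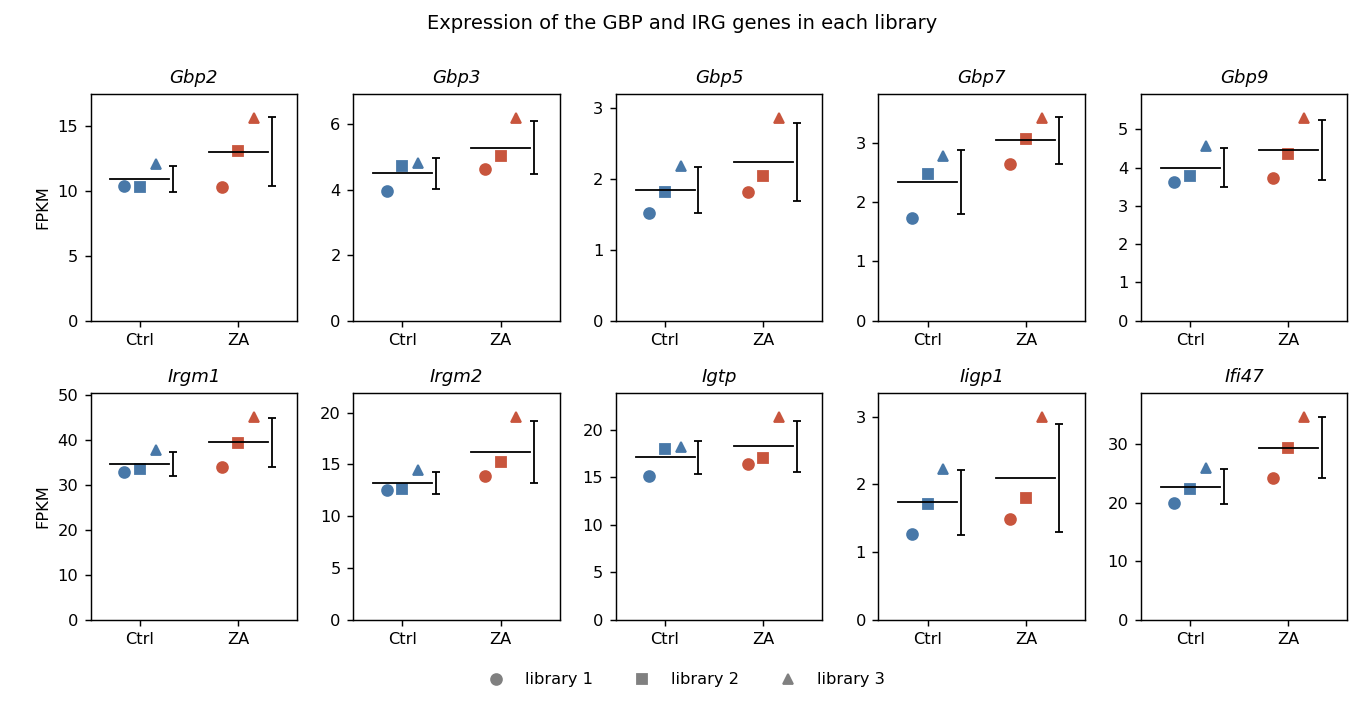
FPKM (linear axis from 0, scaled separately for each gene) of the 10 GBP and IRG genes in 3 Ctrl and 3 ZA libraries, with the symbol shape giving the library number, the horizontal line the group mean and the error bar 1 SD. ZA library 3 is the highest point in all 10 panels and ZA library 1 lies at or below the highest Ctrl library in all 10.

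The comparison asks whether 12 h of ZA altered the mRNA of these genes. Values were fitted as log2(FPKM + 1) with limma over 9800 genes, a scale that understates the change of genes near 1 FPKM such as Iigp1 and Gbp5. With an adjusted p-value under 0.05, 20 genes were higher in ZA (0.204% of those tested) and 16 were lower (0.163%), together 0.367%, and 0 of the 10 members were among them. With limma's voom on the recovered fragments, 0 members were called as well. After centring each library on its median the same counts over all genes were 11 higher and 18 lower, and after quantile normalization 10 and 10. The members' adjusted p-values ran from 0.332 to 0.770. With an unadjusted p-value under 0.05, 3 of 10 members were higher in ZA, namely Gbp7, Irgm2 and Ifi47, beside 7.5% of all genes tested, and 0 members were lower, beside 4.85%, or 12.3% of all genes in either direction. This count was 0 without ZA library 3 (5.87% of all genes higher), ZA library 2 (5.68%), Ctrl library 1 (6%) or Ctrl library 2 (6.01%). It was 4 without Ctrl library 3 (7.1%) and 6 without ZA library 1 (8.65%).

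All 10 members had a positive log2 fold change, as did 56.9% of all genes tested. The median over the members was 0.19, against 0.010 over all genes, with 0.19 for the GBPs and 0.17 for the IRGs. In 0 of 10 members did all ZA libraries lie above all Ctrl libraries, a separation seen in 11.4% of all genes, and in 0 did they all lie below, as in 6.76% of all genes. Without ZA library 1 all remaining ZA values lay above all Ctrl values in 6 members, beside 19.1% of all genes, without Ctrl library 3 in 5, beside 17.7%, and without any one of the other 4 libraries in 0, beside 16.5% to 17%. The median fold change depended on single libraries of both groups. It was 0.081 without ZA library 3 and 0.29 without ZA library 1. Leaving out a Ctrl library gave 0.13 without library 1 and 0.28 without library 3. Without ZA library 3 the log2 fold changes of Igtp and Iigp1 turned to -0.026 and -0.034, and the other 8 stayed positive, between 0.018 for Gbp9 and 0.23 for Ifi47. No other setting tried, including each way of scaling the libraries, gave a negative value for a member.

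**Figure D2:**
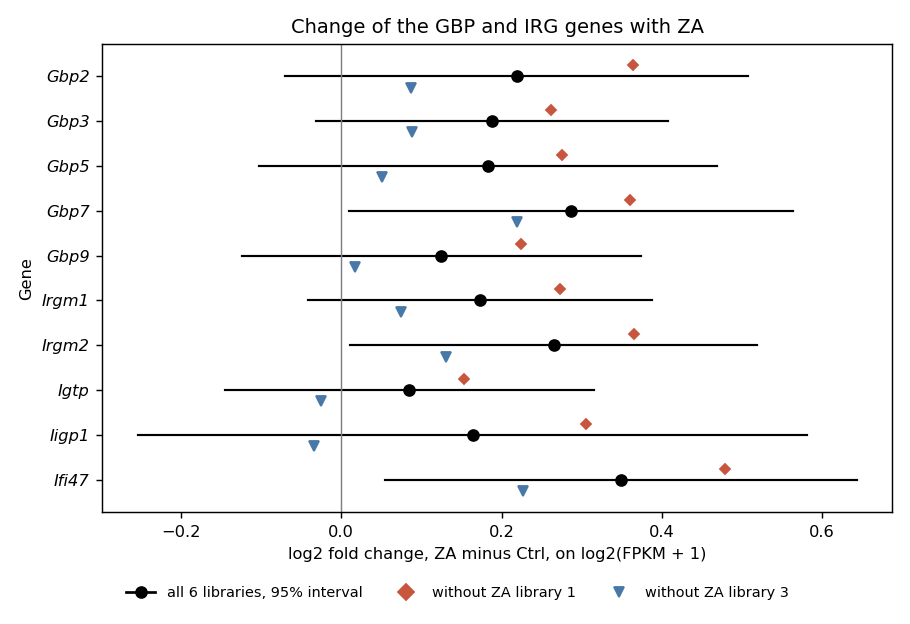
log2 fold change of ZA minus Ctrl on log2(FPKM + 1) for each member, with the 95% interval from limma over all 6 libraries (black), and the value without ZA library 1 (red diamonds) or without ZA library 3 (blue triangles). The black points run from 0.085 for Igtp to 0.35 for Ifi47, intervals leave out 0 for Gbp7, Irgm2 and Ifi47 alone, and each value is higher without ZA library 1 and lower without ZA library 3.

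Within each group the members shared their high and low libraries. ZA library 3 was the highest of the 6 libraries for 10 of 10 members, as for 21.1% of all genes tested. Ctrl library 3 was the highest Ctrl library for 10 of 10 members, as for 33.7% of all genes. The lowest of the 6 was Ctrl library 1 for 9 members, as for 19.9% of all genes, and Ctrl library 2 for Gbp2. ZA library 1 lay at or below the highest Ctrl value for all 10, as it did for 67% of all genes. It was also the lowest ZA library for all 10, a count whose share over all genes was not taken. Expressed as the deviation of log2(FPKM + 1) from each gene's mean, the median of the members was -0.22, -0.11 and 0.039 in Ctrl libraries 1, 2 and 3, and -0.094, 0.056 and 0.33 in the ZA libraries. Even the lowest member in ZA library 3, at 0.26, was above every member's deviation in every other library.

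Spread within the groups was wide for these genes. The residual SD on the log2 scale had a median of 0.193 over the members and 0.0503 over all genes tested, and each member stood between percentiles 96.1 and 99.6 of all genes. Coverage of the members, from 184 to 5239 fragments per library, spanned the median of 1394 fragments over the genes tested. The 95% intervals of the log2 fold changes were wide in turn, as from -0.25 to 0.58 for Iigp1.

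**Figure D3:**
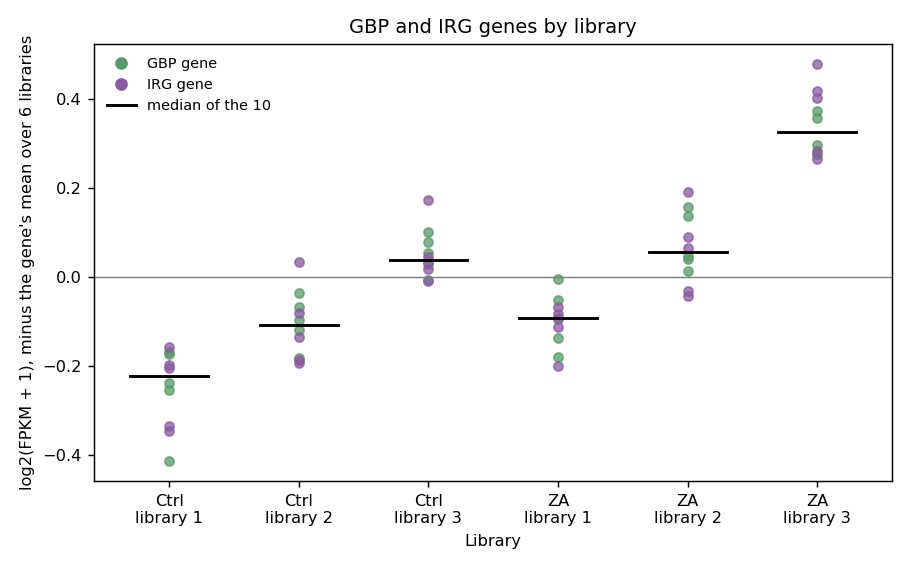
Deviation of log2(FPKM + 1) from the gene's mean over the 6 libraries for the 5 GBP genes (green) and the 5 IRG genes (purple), with the median of the 10 as a black line. The points of both families lie together in each library, with medians from -0.22 in Ctrl library 1 to 0.33 in ZA library 3.

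Libraries with the same number were also set side by side, although the labels do not say that they belong together. Against Ctrl library 1, ZA library 1 was higher for 9 of 10 members, with differences in log2(FPKM + 1) from -0.0074 for Gbp2 to 0.41 for Gbp7 and a median of 0.13. For library 2 it was also 9 members, from -0.077 for Igtp to 0.38 for Ifi47 with a median of 0.20, and for library 3 all 10, from 0.18 to 0.41 with a median of 0.29. Over all genes the corresponding medians were 0.010, 0.0089 and 0.0087, with 55%, 54.1% and 54.1% of genes higher in ZA. In all 3 number-matched comparisons 8 members were higher in ZA, the exceptions being Gbp2 and Igtp, beside 22.4% of all genes. Ifi47 differed by 0.26, 0.38 and 0.40, the highest mean of the 10, and Gbp7 was the only one with its largest difference in library 1, where it was 0.41 against 0.23 and 0.22. Gbp2 was level in library 1 and differed by 0.32 and 0.34 in libraries 2 and 3.

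Other genes of both families were looked up from a list of 24 symbols, of which 15 were in the table and 6 had a mean of at least 1 FPKM. All 6 had positive log2 fold changes, beside 56.9% of all genes, with a median of 0.24. An unadjusted p-value under 0.05 was found for 2, beside 7.5% of all genes higher at that threshold. When library numbers were ignored, 0 had an adjusted one. Tgtp2, an effector IRG (Irgb6), had 1.46, 1.67 and 2.30 FPKM in Ctrl and 2.12, 2.61 and 3.01 FPKM in ZA. Its log2 fold change was 0.35 ± 0.12 (adjusted p = 0.304, limma), near that of Ifi47 on the log2(FPKM + 1) scale. The ratio of means was 1.42 for Tgtp2 and 1.29 for the more abundant Ifi47. Gm5431, an IRG-like gene, had 13.1, 14.5 and 15.8 FPKM in Ctrl and 15.3, 16.6 and 19.3 FPKM in ZA, a log2 fold change of 0.22 ± 0.087 (adjusted p = 0.369, limma). Gm12250 (Irgb10), which breaks open bacterial membranes, had 5.89, 7.11 and 7.14 FPKM in Ctrl and 6.36, 8.37 and 10.7 FPKM in ZA. In all 3 genes the groups overlapped through ZA library 1 alone, as in 6 of the members. In Gbp5, Gbp9, Igtp and Iigp1, ZA library 2 lay within the Ctrl range as well.

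Among the other family genes tested, Iigp1c had a log2 fold change of 0.26 ± 0.16, 9930111J21Rik1 of 0.080 ± 0.045 and Irgq, a distant IRG relative, of 0.028 ± 0.049. Below the filter, Gbp4 had 0.238 to 0.370 FPKM in Ctrl and 0.176 to 0.458 FPKM in ZA, Gbp6 had 0.455 to 0.768 and 0.535 to 1.01 FPKM, and Gbp8 had 0.427 to 0.469 and 0.419 to 0.534 FPKM. Tgtp1 (under 0.1 FPKM), F830016B08Rik, 9930111J21Rik2 and Irgc1 were also expressed below 1 FPKM, and Gbp2b and Gbp10 were covered by at most 2 fragments in any library. Counts within near-identical pairs are uncertain: 64.9% of Tgtp1 and 68.4% of Tgtp2 stretches of 150 bases, and 59.1% of Gbp6 and 66.6% of Gbp10 stretches, occurred in another gene. The same held for 64.5% of 9930111J21Rik1 and 44.3% of 9930111J21Rik2. Of the Gm5431 stretches, 11.4% also occurred in other genes, 9930111J21Rik1 and 9930111J21Rik2 among them.

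Upstream of the GTPases, interferon mRNA was at the limit of detection. The 14 ligand genes listed included Il12a, Il12b, Il18 and Il27, which are not interferons. Of the 14, 8 interferon genes (among them Ifna1, Ifna2, Ifna4 and Ifna5) were at 0 in all 6 libraries. Il12a, Il12b and Il27 were detected but stayed below 1 FPKM in every library. A count of 0 in a single library still allows an expected count of up to about 3 fragments there. Ifng, which encodes interferon-gamma, had 1 fragment in ZA library 3 (0.0196 FPKM) and 0 elsewhere, and Ifnb1, which encodes interferon-beta, had 1 fragment in ZA library 2 (0.0289 FPKM) and 0 elsewhere. The one ligand expressed well enough to be tested was Il18, a cytokine that induces interferon-gamma in lymphocytes, with 2.67, 2.31 and 2.66 FPKM in Ctrl and 2.84, 2.78 and 2.91 FPKM in ZA. All ZA libraries were above all Ctrl libraries for Il18, with a log2 fold change of 0.12 ± 0.053 (adjusted p = 0.424, limma).

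All 8 interferon receptor and JAK kinase genes were expressed, with 8 positive log2 fold changes (56.9% of all genes were positive) and a median of 0.032. An unadjusted p-value under 0.05 was found for 2 of them, beside 7.5% of all genes higher at that threshold. Both were receptor chains, Ifnar1 for type I interferon with a log2 fold change of 0.086 ± 0.026 and Ifngr1 for interferon-gamma with 0.071 ± 0.026. Of 13 STAT and IRF factors, 12 had positive values, beside 56.9% of all genes, and the median was 0.13. An unadjusted p-value under 0.05 was reached by 6 of the 12, beside 7.5% of all genes higher at that threshold. Irf9, the DNA-binding part of the type I interferon complex, had 23.0, 23.8 and 24.6 FPKM in Ctrl and 25.7, 25.3 and 27.2 FPKM in ZA, and its groups did not overlap (log2 fold change 0.12 ± 0.038, adjusted p = 0.248, limma). Irf1 had 0.13 ± 0.053, and Nlrc5, the regulator of class I antigen presentation, had 0.13 ± 0.052.

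Irf7, a driver of type I interferon genes that was named here after its values were seen, had its high and low libraries where the members did. It had 29.2, 34.7 and 38.8 FPKM in Ctrl and 35.0, 46.7 and 58.3 FPKM in ZA, with a log2 fold change of 0.42 ± 0.17 (adjusted p = 0.370, limma). The groups overlapped through ZA library 1. Among 7 inhibitors tested, 5 had positive and 2 negative values with a median of 0.067. Socs1, which blocks JAK kinases, and the phosphatase Ptpn6 had an unadjusted p-value under 0.05, with log2 fold changes of 0.25 ± 0.099 and 0.11 ± 0.032. At that threshold 7.5% of all genes were higher.

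Outside the GTPases, 16 interferon-gamma target genes were tested, of which 13 had positive and 3 negative values around a median of 0.077. With an unadjusted p-value under 0.05, 5 were higher (7.5% of all genes) and 1 was lower (4.85%) in ZA, and 0 passed after adjustment. The 3 with the strongest statistic serve class I antigen presentation: Tapbp with a log2 fold change of 0.11 ± 0.034, Psmb10 with 0.12 ± 0.042 and Tap1 with 0.16 ± 0.058. Cxcl9, Ido1, Nos2 and Ubd, which macrophages make in quantity after interferon-gamma, stayed below 1 FPKM on average in these cells. The 16 tested genes of the same list had means of at least 1 FPKM.

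Downstream partners were mixed. All 9 caspase-11 and inflammasome genes tested had positive values, beside 56.9% of all genes, with a median of 0.035. Casp4, the symbol of mouse caspase-11, had 10.3, 9.84 and 11.3 FPKM in Ctrl and 11.7, 13.4 and 15.1 FPKM in ZA, and Casp1 had 40.0, 40.9 and 40.3 FPKM in Ctrl and 44.2, 42.9 and 44.6 FPKM in ZA. The log2 fold changes were 0.33 ± 0.083 for Casp4 (adjusted p = 0.177, limma) and 0.12 ± 0.026 for Casp1 (adjusted p = 0.113, limma). All ZA values lay above all Ctrl values for both and for Aim2, 3 of the 9 tested, beside 11.4% of all genes. Casp4 and Casp1 were the 2 of 9 with an unadjusted p-value under 0.05, beside 7.5% of all genes higher at that threshold. Of 15 ubiquitin and ATG8 conjugation genes, which mark vacuoles for GTPase loading, 8 had positive and 7 negative values around a median of 0.0010. Calcoco1 was higher, at 0.11 ± 0.031, and Gabarapl1 was lower, at -0.058 ± 0.024, each with an unadjusted p-value under 0.05 only. That threshold was passed by 12.3% of all genes in either direction.

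Among 7 genes of CAAX prenylation, the modification that anchors Gbp2 and Gbp5, 5 had positive and 2 negative values around a median of 0.055. Positive values were seen in 56.9% of all genes tested. Ggps1, named here after its values were seen, had all ZA values below all Ctrl values. Its log2 fold change was -0.092 ± 0.048 (unadjusted p = 0.0905, limma). The farnesyl diphosphate synthase gene Fdps rose. It had 30.9, 30.2 and 30.4 FPKM in Ctrl and 37.3, 38.2 and 42.8 FPKM in ZA, all ZA above all Ctrl, with a log2 fold change of 0.36 ± 0.048 (adjusted p = 0.0453, limma). It was the one gene of the lists with an adjusted p-value under 0.05 when library numbers were ignored. The call was lost without Ctrl library 1, 2 or 3 (adjusted p = 0.124, 0.200 and 0.101, limma), without ZA library 2 (0.163), with no filter (0.227) and with a variance prior without a trend (0.0995), while the log2 fold change stayed between 0.30 and 0.40. The fold change of Fdps was about that of Ifi47, but its Ctrl libraries lay within 1 FPKM of each other, whereas those of Ifi47 ran from 19.9 to 25.9 FPKM.

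**Figure D4:**
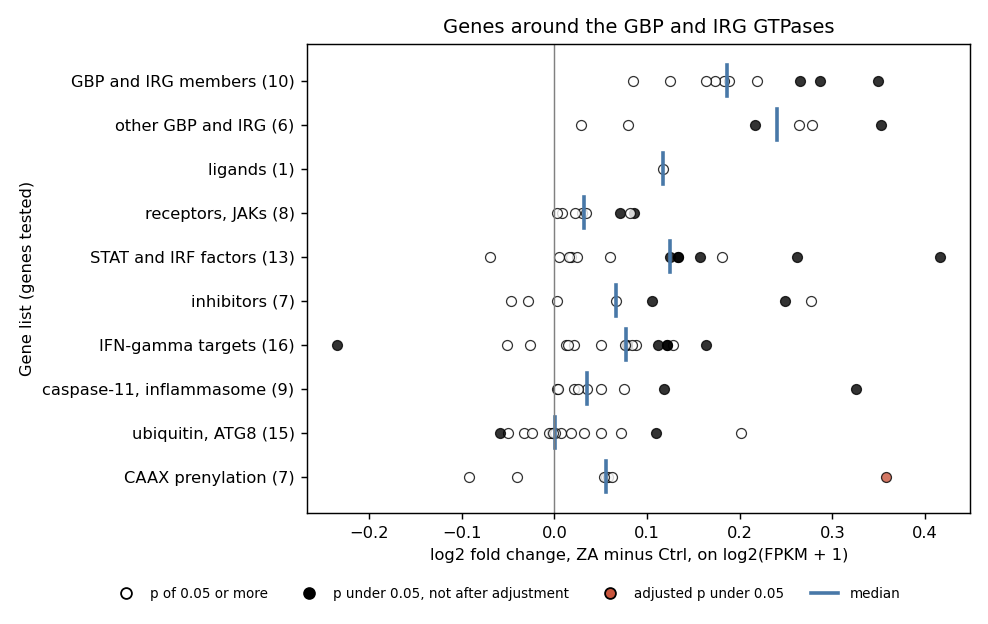
log2 fold change of ZA minus Ctrl on log2(FPKM + 1) for each gene tested in the members and in 9 gene lists, with the number tested in parentheses, filled points for an unadjusted p-value under 0.05, red for an adjusted one and blue bars for medians. The median is 0.19 for the members, 0.24 for other GBP and IRG genes and 0.0010 for the ubiquitin and ATG8 genes, and Fdps is the single red point.

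The genes whose pattern over the 6 libraries was most like that of the members were found by the root mean square difference between standardised profiles, over 9790 other genes with a median difference of 1.25. Nearest were Ifi209 (0.0739), Ifit2 (0.0791), Ifi204 (0.0907), Ifit3 (0.0966) and Mospd2 (0.0994), while the members themselves lay between 0.123 and 0.397 from their own mean. The first 4 are interferon-induced genes, and the last encodes a membrane contact protein. Ifit2, which binds viral RNA, had 14.7, 19.2 and 23.5 FPKM in Ctrl and 18.8, 26.0 and 39.0 FPKM in ZA, a wider range than any member. Its log2 fold change was 0.48 ± 0.25 (adjusted p = 0.471, limma).

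Markers of cells that could accompany BMDMs were read beside the members. T and NK cell markers, the usual source of interferon-gamma, summed to between 8.96 and 9.48 FPKM in Ctrl and between 8.73 and 10.2 FPKM in ZA. Nearly all of this was Cd4, which macrophages can express, and the other 9 of the 10 genes, Cd3e, Cd3d and Ncr1 among them, were too low to test. Summed macrophage markers were 26651, 28792 and 30664 FPKM in Ctrl libraries 1, 2 and 3 and 27637, 29310 and 31301 FPKM in the ZA libraries. The sums too were lowest in library 1 and highest in library 3 of each group, but lysozyme (Lyz2) made up the largest part of every sum. Of the 10 markers only Lyz2, Fcgr1 and C1qb had that order in both groups. Csf1r, Adgre1, Itgam, Mertk and C1qa were instead highest in library 1 among the Ctrl libraries. Stromal and endothelial markers ran the other way, with 34.2, 26.6 and 19.1 FPKM in Ctrl and 24.4, 21.2 and 16.9 FPKM in ZA. Of 6 neutrophil and progenitor genes tested, all 6 had negative fold changes, 4 with an unadjusted p-value under 0.05, beside 4.85% of all genes lower at that threshold. The sums over all listed genes of this type were 34.8 to 49.7 FPKM in Ctrl and 30.8 to 36.0 FPKM in ZA. B cell markers summed to 2.33 to 3.04 FPKM in Ctrl and 2.07 to 2.32 FPKM in ZA, and erythroid markers to 0.380 to 2.63 FPKM and 0.777 to 1.82 FPKM. The dendritic cell sum, 196 to 231 FPKM in Ctrl and 217 to 283 FPKM in ZA, was almost wholly Bst2, which is itself induced by interferon. In bulk RNA, fewer cells of a type and less RNA per cell cannot be told apart, and the part of these differences in the members' values was not tested. The members together took 0.0283%, 0.0305% and 0.0345% of fragments in Ctrl and 0.0311%, 0.0358% and 0.0432% in ZA.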

How the data were processed

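Total RNA was sequenced by the authors as 3 Ctrl and 3 ZA libraries, and one table of FPKM per gene and library was deposited. The labels name both a VAHTS and a SMARTER library kit, and the submitters' processing notes name build mm9. The aligner, counting program, annotation and use of strand are not given in the sources used here. Separators were lost in all but 11 of 35434 deposited rows, so values were separated by the rule that each is a whole number of fragments scaled by gene length and library total. This restored 35271 rows, holding 99.7% of fragments, and left out 163. The 11 intact rows were restored identically, and of 2891 simulated rows 2886 were restored exactly and 0 wrongly. Because the length and total were recovered with the rows, whole fragments are known for each value.

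ZA and Ctrl were tested on log2(FPKM + 1) in limma 3.58.1 (R 4.3.3, empirical Bayes with a trend, two-sided) over 9800 genes with a mean of at least 1 FPKM, with Benjamini-Hochberg adjustment over all of them. Tested on simulated data with independent normal noise for each gene, 199 of 200 genes changed 2-fold were called, and so were 14 unchanged genes. With 0 genes changed, 0 were called. Python 3.11.15, NumPy 2.4.6, pandas 2.3.3 and Matplotlib 3.10.9 did the rest. Shared stretches of 150 bases were counted in GENCODE M21 transcripts. Libraries of a group differed beyond counting noise (chi-square per gene from 3.52 to 9.73). Genes named are the members, the other family genes, at most 3 genes per list by the size of the limma statistic among those with an unadjusted p-value under 0.05 (otherwise the strongest one), the markers and the 5 nearest profiles. Irf7 and Ggps1 were named outside that rule, after their values were seen. The members and lists were chosen with earlier results of these data known. Settings changed were the pseudocount, the filter, scaling, the variance prior, a replicate block, voom on fragments, and each library in turn.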

Additional observations from a re-analysis of the deposited data

How the results depend on the processing

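Of 135 member fold changes under 14 alternatives, 132 kept their direction and side of the threshold and 133 were positive. Leaving out 1 library at a time gave Igtp from -0.026 (without ZA replicate 3) to 0.15 and Iigp1 from -0.034 (without ZA replicate 3) to 0.31. No other value reversed. Gbp7 and not Ifi47 had the highest member fold change with a pseudocount of 0.1 (0.39 against 0.36) and with voom (0.40 against 0.36). Leaving out single libraries moved the number of members with an unadjusted p-value under 0.05 from 3 to between 0 (without ZA replicate 2 or 3, or Ctrl replicate 1 or 2) and 6 (without ZA replicate 1), and the members whose groups do not overlap from 0 to between 0 and 6. Genes called over the whole table went from 36 to between 0 (without ZA replicate 2) and 25. Members with an unadjusted p-value under 0.05 numbered 0 with no filter (8.87% of all genes in either direction), 1 after centring (12%), and 1 with a variance prior without a trend (11.5%). They numbered 2 after quantile normalization (11.9%), 3 with a pseudocount of 0.1 (12.3%) and 4 with voom (13.4%). With a filter of 5 FPKM they were 2 of the 5 members tested (14%). Genes called numbered 1 with no filter, 1 without the trend, 20 after quantile normalization and 132 with voom. Unadjusted calls were 735 higher and 475 lower, but 508 and 664 when centred and 574 and 589 when quantile-normalized. With a filter of 5 FPKM, 5 members were tested and 3 were higher in all same-numbered libraries. Causes were not tested. The labels do not tie same-numbered libraries together, and their deviations correlated by 0.284, 0.0393 and 0.280, so the numbers were not taken as pairs. All 6 libraries correlated best with their own number, a hint from the data and not the design. The replicate block gave 78 genes called, 1 member with an adjusted p-value under 0.05 (Ifi47, 0.0201, where 0.418% of all genes were called higher) and 9 members with an unadjusted one (9.23% of genes higher). Of the pathway lists it called Tgtp2 (0.0471), Gm5431 (0.0481) and Irf7 (0.0360) beside Fdps (0.0277). How well changes of the members' size can be called was not tested.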
